A study of Mus musculus with 4 samples.

Results

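The genes described here encode neurotrophins, glial cell line-derived neurotrophic factor (GDNF) and the receptors that bind them, in primary cultures of mouse cerebral cortex. The members were 9 genes listed by symbol: the ligand genes Bdnf, Ntf3 and Gdnf, the receptor tyrosine kinase genes Ntrk2, Ntrk3 and Ret, and the co-receptor genes Ngfr, Sort1 and Gfra1. All probe sets that the platform annotation assigns to 1 of these symbols alone were taken, which gave 30 of the 45037 probe sets that measure transcripts and covered 8 of the 9 genes. Ntf3 had no such probe set, and its expression was not analysed here. Of the 30 probe sets, 18 were bright enough to be tested; they read 5 members (Bdnf, Ntrk2, Ntrk3, Sort1 and Gfra1), among 12040 genes tested in all. Gdnf, Ret and Ngfr had no probe set that passed this filter, so that their values are described without a test.

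Neurons and astrocytes were each measured on 2 arrays, labelled as biological replicates, all from C57BL6 mice with no stated genetic change or drug. Neurons were taken from fetuses at embryonic day 16 and kept for 7 days in vitro; after 2 h their plating medium was replaced by one that held 19.4 mM glucose and 1% fetal calf serum, to which insulin, transferrin, progesterone, putrescine and selenite had been added. Astrocytes were taken from newborn animals and kept for 20 days in a medium with 10% serum and 33 mM glucose. The periods are those of the series description; the protocol text gives a single period for all assays, which fits the neurons alone. Donor age, medium and time in culture differed together with cell type and cannot be told apart from it. The question is how the 2 culture types differ in these ligands and receptors.

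As background, neurotrophins are secreted proteins, made as larger precursors, that keep neurons alive and shape their growth and synapses. BDNF, the product of Bdnf, acts through the receptor kinase TrkB (Ntrk2), and neurotrophin-3 (Ntf3) through TrkC (Ntrk3). The receptor p75NTR (Ngfr) binds all neurotrophins and, with sortilin (Sort1), their precursors. GDNF binds the membrane-anchored co-receptor GFRalpha1 (Gfra1), which presents it to the receptor kinase Ret. Ntrk2 and Ntrk3 both give rise, by alternative splicing with different 3' ends, to full-length receptors and to truncated receptors that lack the kinase. In brain, truncated TrkB is known as the main form in astrocytes and full-length TrkB as a form of neurons. The sources used here do not give which of these transcripts each probe set detects.

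The cultures differed in opposite directions at different receptors. Ntrk3 was higher in neurons on 5 of its 8 probe sets, the other 3 being too dim to test, by up to 7.48-fold where both cultures were read above background and by at least 8.85-fold on 1 probe set at background in astrocytes. Gfra1 was higher in astrocytes on 2 of its 3 probe sets, by 2.01-fold and at least 2.33-fold, and the third was too dim to test. Ntrk2 was split: 3 of its 7 tested probe sets were higher in neurons, by up to 12.5-fold, and 3 were higher in astrocytes, by up to 3.67-fold. Bdnf passed the threshold on neither of its 2 probe sets. Over the 18 tested probe sets of the members, 8 passed higher in neurons and 6 higher in astrocytes, against 29.4% and 27.7% of all 25019 probe sets tested. Read by the brightest tested probe set of each gene, 1 of the 5 members (Ntrk3) was higher in neurons and 2 (Ntrk2 and Gfra1) were higher in astrocytes, against 31.0% and 31.1% of all genes. Of the 18 tested probe sets, 5 reached the array medians in the brighter culture alone, 3 of Ntrk3 (1455917_at, 1447723_at and 1425071_s_at) in neurons and 1 each of Ntrk2 (1420837_at) and Gfra1 (1450440_at) in astrocytes. The filter admitted these through the culture where they were high, so the counts of tested probe sets are a description and support no direction for a gene.

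Signals are the deposited linear values of the Affymetrix MAS5 algorithm, and differences are log2(signal + 12.5) in neurons minus the same in astrocytes, with their standard error (SE) and the Benjamini-Hochberg adjusted p of limma over all tested probe sets. Fold changes without "at least" are on this scale and understate changes of dim probe sets. Background was taken as the highest signal among 27 Bacillus subtilis control probe sets, which was 21 and 23 for neurons and 17 and 15 for astrocytes. A fold written with "at least" divides the brighter culture by the background of the other. The signal of a probe set depends on its probes as well as on its transcript, so levels are compared between cultures and not between probe sets. In these bulk cultures, fewer cells of a type and less RNA per cell cannot be told apart.

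Markers of the labelled cell types were checked with lists of 10 genes. All 10 neuron markers were higher in neurons, with summed signals of 33863 and 33662 in neurons against 3135 and 2948 in astrocytes. Most of the astrocyte sums came from Map2 (1487 and 1269) and Stmn2 (1465 and 1485). Snap25, Dcx and Nefm were at or under background on both astrocyte arrays. Of 10 astrocyte markers 8 were higher in astrocytes and Slc1a2, a glutamate transporter gene, was higher in neurons, with sums of 9126 and 8975 in neurons and 20457 and 19316 in astrocytes, and all were above background in neurons on at least 1 array. Markers of other cell types were also read. Oligodendrocyte lineage markers summed to 5705 and 4933 in neurons and 5550 and 6140 in astrocytes over 9 genes; of the 7 tested, 4 were higher in neurons (Pdgfra, Mbp, Sox10 and Cspg4) and 2 higher in astrocytes (Cnp and Olig1), and Olig2 did not pass. Pdgfra, the receptor gene of the precursor cells, had 1177 and 1302 in neurons and 19 and 21 in astrocytes, and Cnp, a gene of myelin, had 366 and 500 in neurons and 1344 and 1536 in astrocytes. Fibroblast and meningeal markers summed to 825 and 916 in neurons and 5577 and 5809 in astrocytes over 10 genes. Of these, 7 were higher in astrocytes, Lum and Ptgds were higher in neurons, and Dcn did not pass. Islr alone had 2465 and 2689 in astrocytes. Endothelial and mural markers summed to 231 and 615 in neurons and 7424 and 8288 in astrocytes, mostly from the smooth muscle genes Acta2 and Tagln. Only those 2 passed, and 6 of the 10 were too dim to test, so no endothelial gene passed. Microglia markers summed to 156 and 209 in neurons and 580 and 589 in astrocytes over 10 genes, with 6 of them at or under background in neurons and 1 in astrocytes. Of the 5 tested, 4 were higher in astrocytes (Csf1r, C1qa, C1qb and Cd68) and Cx3cr1 did not pass. C1qa and C1qb were at or under background in neurons. The part of other cell types in the receptor differences below was not tested.

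Among the ligands, Bdnf was read above background in both cultures at similar signals. Probe set 1422168_a_at had signals of 122 and 112 in neurons, against 94 and 94 in astrocytes. The neuron arrays lay above the astrocyte arrays, but the difference of 0.28 ± 0.18 (SE) did not pass (adjusted p = 0.205). Probe set 1422169_a_at had 70 and 61 in neurons and 62 and 70 in astrocytes, and these ranges overlapped (difference -0.01 ± 0.20, adjusted p = 0.972). These p-values do not show that the cultures hold equal levels.

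Gdnf, by contrast, was not read above background anywhere. Its only probe set, 1419080_at, had signals of 2 and 1 in neurons and 3 and 2 in astrocytes, all under the array backgrounds. No difference is given for Gdnf, since both cultures have only a bound.

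The promoter windows of these genes in RefSeq (build GRCm38.p6), each 300 bases long from 250 before a transcript start to 50 after it, are shown where they hold a match to the half-site of the cAMP response element, which binds CREB, a factor known to act downstream of Trk receptors and on Bdnf. The half-site was searched as TGACG or CGTCA, the same letters on the other strand, and the GC box of Sp1 as GGGCGG or CCGCCC. For the members the table held 14 windows, 7 of them for Bdnf, which has many starts. They covered 6 of the 9 members, with 2 windows for Ntf3 and none for Ntrk3, Sort1 or Ret. The half-site was found in 1 of the 7 Bdnf windows and in 1 of the 2 Gdnf windows, against 20.8% of all 32851 windows in the table. The full element TGACGTCA, which contains both half-sites, was in none of the 14, against 1.79% of all windows. Lower case marks bases outside a match, and capitals mark the half-site. The match begins 35 bases before the start in the Bdnf window and 50 bases before it in the Gdnf window. A match of letters is not a measured site, and the probe sets do not tell the Bdnf starts apart.
Bdnf, chr2:109692186-109692485, plus strand: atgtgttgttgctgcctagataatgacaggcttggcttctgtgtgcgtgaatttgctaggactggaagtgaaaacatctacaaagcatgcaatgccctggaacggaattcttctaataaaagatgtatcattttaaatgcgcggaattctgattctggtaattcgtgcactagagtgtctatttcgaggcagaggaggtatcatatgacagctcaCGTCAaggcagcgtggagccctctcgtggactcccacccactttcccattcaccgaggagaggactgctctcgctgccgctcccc
Gdnf, chr15:7809798-7810097, plus strand: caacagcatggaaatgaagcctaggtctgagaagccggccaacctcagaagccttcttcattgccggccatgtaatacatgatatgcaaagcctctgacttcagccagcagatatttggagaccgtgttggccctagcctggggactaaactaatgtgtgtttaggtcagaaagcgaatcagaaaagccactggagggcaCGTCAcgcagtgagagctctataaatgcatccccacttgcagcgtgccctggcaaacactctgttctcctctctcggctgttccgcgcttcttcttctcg

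**Figure D1:**
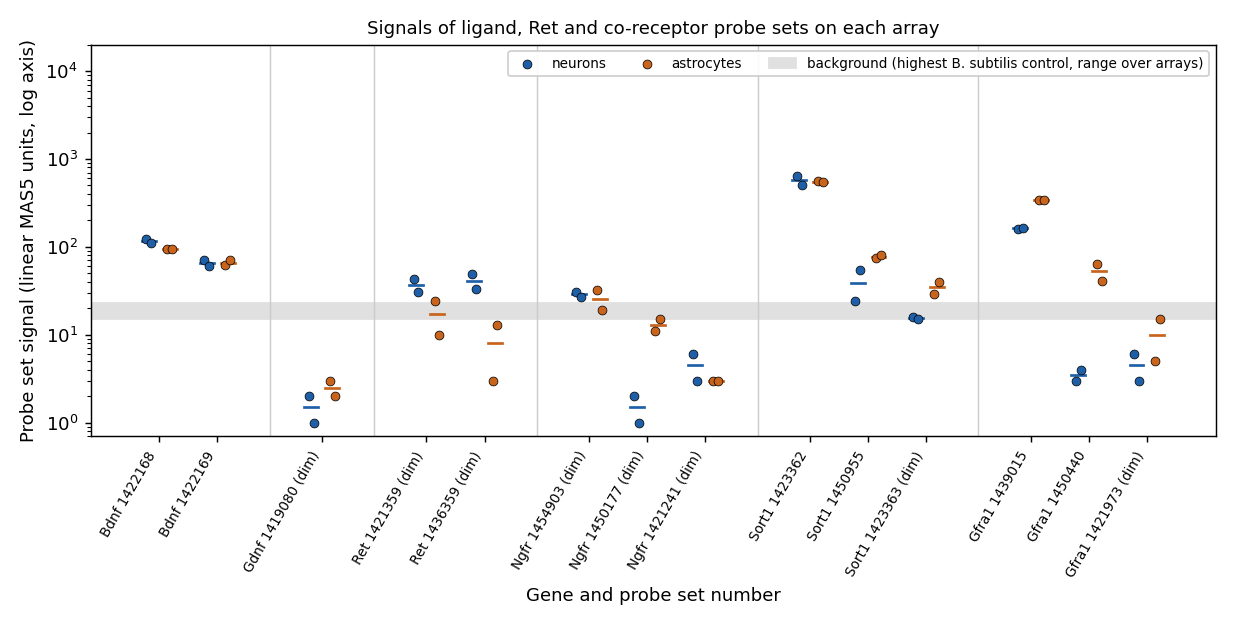
Signal (linear MAS5 units on a log axis) of each probe set of Bdnf, Gdnf, Ret, Ngfr, Sort1 and Gfra1. Points are single arrays, 2 of neurons on the left and 2 of astrocytes on the right of each position, and short lines are group means. The grey band spans the array backgrounds of 15 to 23, and "dim" marks probe sets that were not tested. Bdnf lies above the band in both cultures, Gdnf lies below it in both, and Gfra1 1439015 is higher in astrocytes.

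Among the receptor kinases, Ntrk2 gave strong signals in both cultures, and its probe sets disagreed in direction. Probe set 1420838_at had 772 and 689 in neurons, against 2576 and 2852 in astrocytes. The groups lay far apart, a 3.67-fold difference toward astrocytes (-1.88 ± 0.12, adjusted p = 3.40e-06). Probe set 1435196_at behaved alike, with 506 and 529 in neurons and 1701 and 1751 in astrocytes (-1.71 ± 0.11, adjusted p = 4.35e-06). Probe set 1420837_at, which was built from the same source sequence as 1420838_at by the platform annotation, was dim, with 20 and 15 in neurons and 41 and 42 in astrocytes. Its neuron signals were at or under background, which gives a fold of at least 1.89 higher in astrocytes (-0.85 ± 0.24, adjusted p = 0.0159). It reached the array medians in astrocytes alone, so its call is a description.

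The other Ntrk2 probe sets ran the opposite way. Probe set 1458622_at had 1443 and 1650 in neurons, against 114 and 109 in astrocytes. This was a 12.5-fold difference toward neurons (3.65 ± 0.14, adjusted p = 2.62e-07). Probe set 1435305_at had 682 and 817 in neurons and 97 and 117 in astrocytes (2.67 ± 0.16, adjusted p = 2.67e-06). Probe set 1437560_at had 321 and 375 in neurons and 70 and 73 in astrocytes (2.10 ± 0.17, adjusted p = 1.18e-05). In all 3, both neuron arrays were several times brighter than both astrocyte arrays, which still lay above background. Probe set 1446712_at had 75 and 92 in neurons and 62 and 57 in astrocytes and did not pass (0.41 ± 0.20, adjusted p = 0.117). Probe set 1444121_at was too dim to be tested, at 14 and 17 in neurons and 18 and 13 in astrocytes.

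Whether the probe sets of a gene changed unequally was tested directly, on the log2 difference between each further probe set and the gene's brightest one on the same array. Against 1420838_at, the neuron-minus-astrocyte difference was larger by 5.53 ± 0.22 for 1458622_at (adjusted p = 0.000365), by 4.55 ± 0.22 for 1435305_at (adjusted p = 0.000429) and by 3.97 ± 0.23 for 1437560_at (adjusted p = 0.000524). It was also larger for 1446712_at, by 2.29 ± 0.25 (adjusted p = 0.00306). For 1420837_at, at or under background in neurons, the size of this difference is set by the offset, at 0.68 with an offset of 1 (adjusted p = 0.166) and 1.38 with 4 times the offset; it passed at the offset used (adjusted p = 0.0227), and leaving out any single array ended that call (adjusted p from 0.0676 to 0.121). For 1435196_at the difference from 1420838_at did not pass (0.16 ± 0.18, adjusted p = 0.587). Over all members 8 of 13 such differences passed, against 20.6% of 9326 over all genes. Among them were those of 1420837_at and Gfra1 1450440_at, each with a culture under background. That of Ntrk3 1425071_s_at, which the filter admitted through neurons alone, was also among them. Most of those that passed were of Ntrk2 and share the reference 1420838_at, so they are not separate results and the count describes mainly 1 gene.

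Probe sets passing in opposite directions were found for 177 (3.18%) of 5559 genes with at least 2 tested probe sets. Ntrk2 was 1 of these, and its log2 differences spanned 5.53, the 9th widest span among those genes. Read by the brightest probe set, the gene was higher in astrocytes; with its 7 tested probe sets averaged it was higher in neurons (0.63, adjusted p = 0.00199). The calls of the 3 probe sets higher in neurons and of the pair 1420838_at and 1435196_at held with any 1 array left out, whereas 1420837_at missed the threshold without neurons replicate 2, astrocytes replicate 1 or astrocytes replicate 2 (adjusted p up to 0.0761) and with no filter on dim signals (adjusted p = 0.0507).

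The RefSeq table holds 1 start window for Ntrk2, shown because the probe sets that differ in direction belong to a gene with this single listed start. It holds no half-site of the cAMP response element and 1 GC box, in capitals, at position 36 with the start counted as 1. GC boxes were in 6 of the 14 member windows, 2 of them of Ntf3, against 35.7% of all windows.
Ntrk2, chr13:58806319-58806618, plus strand: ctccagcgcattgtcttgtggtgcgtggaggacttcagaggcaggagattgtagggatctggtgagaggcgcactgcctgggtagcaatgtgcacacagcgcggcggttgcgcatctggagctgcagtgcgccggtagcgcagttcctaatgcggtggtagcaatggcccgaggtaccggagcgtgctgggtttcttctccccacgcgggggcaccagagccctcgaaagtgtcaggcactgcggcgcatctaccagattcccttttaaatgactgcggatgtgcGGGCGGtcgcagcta

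**Figure D2:**
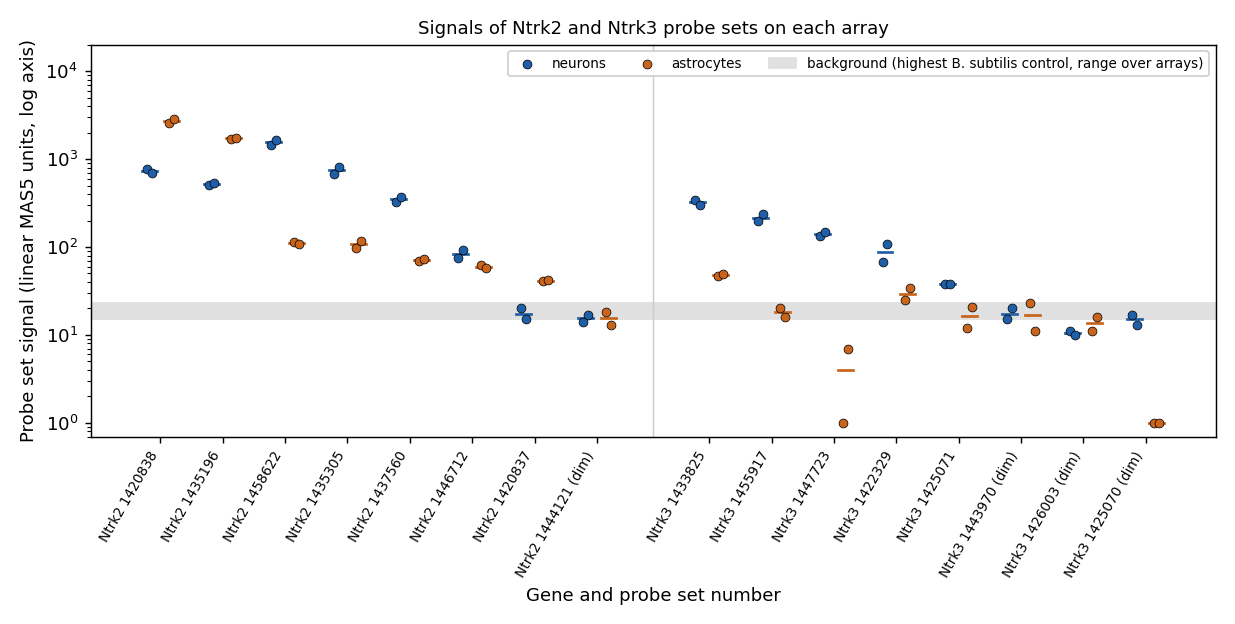
Signal (linear MAS5 units on a log axis) of each Ntrk2 and Ntrk3 probe set. Points are single arrays, 2 of neurons on the left and 2 of astrocytes on the right of each position, short lines are group means, and the grey band spans the array backgrounds of 15 to 23. Ntrk2 probe sets 1420838 and 1435196 are brighter in astrocytes while 1458622, 1435305 and 1437560 are brighter in neurons. The tested Ntrk3 probe sets are all brighter in neurons, but the filter admitted 1455917, 1447723 and 1425071 through neurons alone.

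Ntrk3 was higher in neurons on the probe sets bright enough to be tested. Probe set 1433825_at, its brightest, had 345 and 304 in neurons, against 47 and 49 in astrocytes. This is a 5.56-fold difference (2.48 ± 0.17, adjusted p = 5.38e-06). Probe set 1455917_at had 197 and 235 in neurons and 20 and 16 in astrocytes, close to the astrocyte backgrounds (2.90 ± 0.21, adjusted p = 6.24e-06). Probe set 1447723_at had 135 and 148 in neurons and 1 and 7 in astrocytes, at least 8.85-fold higher in neurons (3.25 ± 0.26, adjusted p = 1.25e-05). With any 1 array left out the calls of all 3 probe sets held, in fits that kept the filter set on all 4 arrays. That filter admitted 1455917_at and 1447723_at through neurons alone, so their calls are a description and support no direction.

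A pair of Ntrk3 probe sets that can match several transcripts gave smaller differences. Probe set 1422329_a_at had 67 and 108 in neurons and 25 and 34 in astrocytes (1.23 ± 0.26, adjusted p = 0.00404). Probe set 1425071_s_at, which reached the array medians in neurons alone, had 38 and 38 in neurons and 12 and 21 in astrocytes (0.82 ± 0.26, adjusted p = 0.0272). Relative to 1433825_at these differences were smaller by an amount that passed, at -1.25 ± 0.29 (adjusted p = 0.0328) and -1.66 ± 0.22 (adjusted p = 0.00598). The call of 1422329_a_at was lost without neurons replicate 2 or either astrocyte array, and that of 1425071_s_at without either neuron array or astrocytes replicate 1, with no filter (adjusted p = 0.0805) and with quantile normalization (adjusted p = 0.0551). The difference of 1422329_a_at from 1433825_at was lost without neurons replicate 1 or either astrocyte array, with no filter (adjusted p = 0.0542) and with an offset of 1 (adjusted p = 0.101). The 3 remaining probe sets were not tested. Probe set 1425070_at had 17 and 13 in neurons and 1 and 1 in astrocytes, 1443970_at had 15 and 20 in neurons and 23 and 11 in astrocytes, and 1426003_at had 11 and 10 in neurons and 11 and 16 in astrocytes. All 6 neuron signals of these lay under background. With no filter 1425070_at, at or under background in both cultures, passed toward neurons (1.02 ± 0.18, adjusted p = 0.0139). The differences of 1443970_at and 1426003_at did not pass with no filter (0.05, adjusted p = 0.926, and -0.17, adjusted p = 0.626).

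Ret, the kinase that GDNF and its relatives share, was near background. Probe set 1421359_at had 43 and 31 in neurons, against 24 and 10 in astrocytes. Probe set 1436359_at had 49 and 33 in neurons, against 3 and 13 in astrocytes, where both signals were under background. Neuron signals were above background on both probe sets, which gives at least 2.52-fold higher in neurons for 1436359_at. Both failed the filter on dim signals, and when no filter was applied the differences were 0.78 ± 0.33 (adjusted p = 0.161) for 1421359_at and 1.41 ± 0.35 (adjusted p = 0.0380) for 1436359_at.

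Among the co-receptors, Gfra1 was higher in astrocytes. Probe set 1439015_at had 161 and 164 in neurons, against 338 and 342 in astrocytes. The replicates were within a few units of each other, and the difference was 2.01-fold (-1.01 ± 0.14, adjusted p = 0.000386). Probe set 1450440_at had 3 and 4 in neurons, under background, and 64 and 41 in astrocytes, at least 2.33-fold higher in astrocytes (-2.00 ± 0.28, adjusted p = 0.000378). It reached the array medians in astrocytes alone, so its call is a description. Both calls held with any 1 array left out. The size of the second depended on the offset, at -3.55 with an offset of 1 and -0.93 with an offset 4 times as large. At the offset used the 2 probe sets differed by -0.99 ± 0.25 (adjusted p = 0.0403), a call that was lost with the larger offset (-0.05, adjusted p = 0.856), with no filter (adjusted p = 0.0640) and with any 1 array left out. Probe set 1421973_at was too dim, at 6 and 3 in neurons and 5 and 15 in astrocytes, all at or under background.

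Sort1, which encodes a sorting receptor of the trans-Golgi network and the cell surface, did not pass on its brightest probe set. Probe set 1423362_at had 644 and 503 in neurons and 557 and 547 in astrocytes. The astrocyte values lay between the neuron values (0.04 ± 0.15, adjusted p = 0.822). Probe set 1450955_s_at had 24 and 54 in neurons and 74 and 80 in astrocytes and passed toward astrocytes (-0.86 ± 0.30, adjusted p = 0.0350). Its difference was -0.43 without neurons replicate 1 (adjusted p = 0.144) and -1.29 without neurons replicate 2, and the call was also lost without either astrocyte array, with no filter (adjusted p = 0.129) and with an offset of 1 (adjusted p = 0.0546). Probe set 1423363_at had 16 and 15 in neurons, under background, and 29 and 40 in astrocytes, and was not tested. With the 2 tested probe sets averaged, Sort1 was higher in astrocytes (-0.41, adjusted p = 0.0348). The difference between them did not pass (-0.90 ± 0.40, adjusted p = 0.178).

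Ngfr was at or near background in both cultures. Probe set 1454903_at had 31 and 27 in neurons and 32 and 19 in astrocytes, just above background, and the groups overlapped. Probe set 1450177_at had 2 and 1 in neurons and 11 and 15 in astrocytes, and 1421241_at had 6 and 3 in neurons and 3 and 3 in astrocytes. All signals on these other probe sets were at or under background, so no fold is given. With no filter 1450177_at passed toward astrocytes (-0.86 ± 0.18, adjusted p = 0.0247). The differences of 1454903_at and 1421241_at did not pass with no filter (0.15, adjusted p = 0.748, and 0.13, adjusted p = 0.636).

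**Figure D3:**
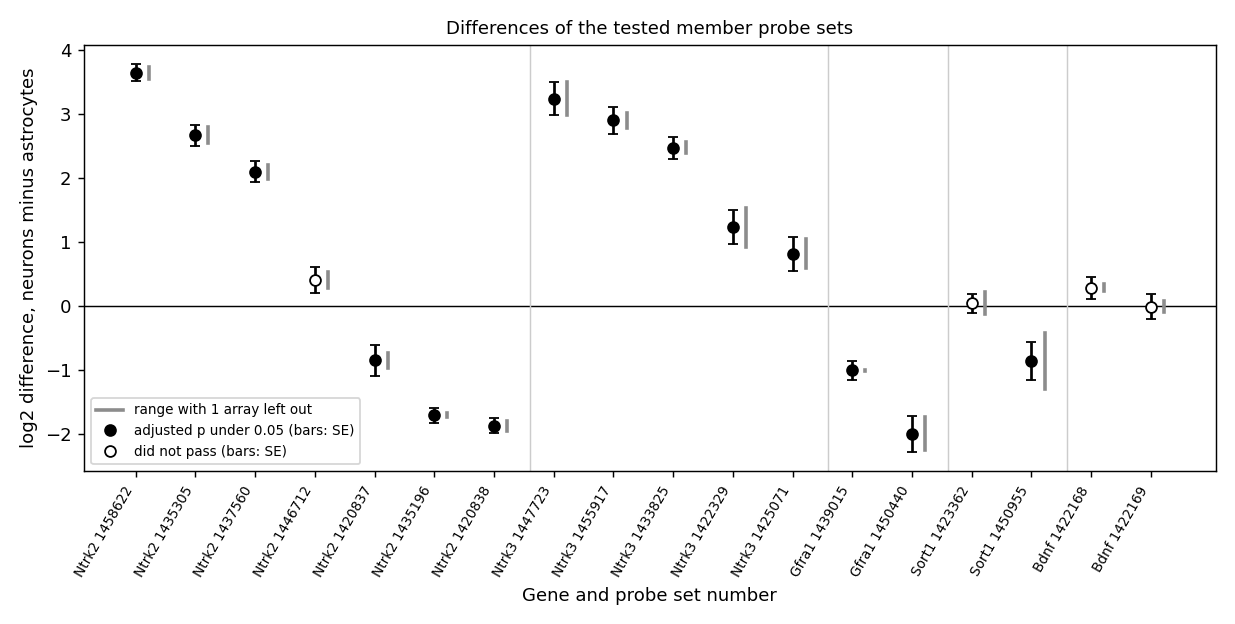
log2 difference (neurons minus astrocytes) of the 18 tested probe sets of the members. Points are estimates with standard error bars, filled where the adjusted p was under 0.05 and open where it was not, and grey lines span the 4 fits with 1 array left out. Ntrk2 runs from 3.65 to -1.88, the 5 tested Ntrk3 probe sets lie above 0, and the 2 tested Gfra1 probe sets lie below 0. The filter admitted Ntrk3 1455917, 1447723 and 1425071 through neurons alone, and Ntrk2 1420837 and Gfra1 1450440 through astrocytes alone. The side of 0 of these is a description.

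The genes whose profiles over the 4 arrays were most like those of the members were found by the root mean square difference between centred log2 values, among 12039 other genes. They were Irak2 and Gnpda2 for the brightest Ntrk2 probe set (0.01 and 0.02), Cmas and Rab3a for Ntrk3 (0.03 and 0.03) and Mrpl24 and Wdfy2 for Gfra1 (0.01 and 0.02). For Bdnf they were Dpm2 and Apoo (0.01 and 0.01) and for Sort1 Rab1b and Slc16a11 (0.02 and 0.02). The likeness is over 4 arrays only.

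The wider pathway was described with a list of 99 other genes by role, of which 75 were tested, 9 were too dim and 15 were not analysed here for want of a probe set of their own. Of the 75, 27 (36%) were higher in neurons and 23 (30.7%) higher in astrocytes, against 31.0% and 31.1% of all genes. The counts by role below are a description, to be read beside these shares of all genes. Gfra2, Sorcs3, Syt4, Vgf and Sh2b2 were at or under background in astrocytes, and Nradd and Shc1 in neurons. Among the genes named below, Gfra4, Cadps2 and Lingo1 also lay under the median of each astrocyte array. The filter admitted such genes through the other culture, so their calls are a description and support no direction. Over the 75 the median difference was 0.21, against 0.02 over all genes. Without neurons replicate 2 the number higher in astrocytes was 15 and without astrocytes replicate 2 it was 14.

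Of the other ligands and receptors on the list, 1 ligand and 3 receptors were tested, and the ligand was higher in astrocytes while 2 receptors were higher in neurons. Nrtn, the ligand neurturin, had 44 and 28 in neurons and 59 and 71 in astrocytes (-0.69 ± 0.25, adjusted p = 0.0402), and lost its call without neurons replicate 2 or either astrocyte array, with no filter (adjusted p = 0.115) and with an offset of 1 (adjusted p = 0.0547). Gfra2, the co-receptor that neurturin prefers, had 206 and 185 in neurons and 2 and 15 in astrocytes, at least 12.2-fold higher in neurons (adjusted p = 2.76e-05). That probe set can also match other sequences. Gfra2 was read by a different probe set, and did not pass, without neurons replicate 2 (1.25, adjusted p = 0.141) and when probe sets that can match several transcripts were left out (0.92, adjusted p = 0.0537). Gfra4, the co-receptor of persephin, had 86 and 72 in neurons and 22 and 13 in astrocytes (1.62 ± 0.25, adjusted p = 0.000622).

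Of 3 genes listed for the binding of GDNF without Ret, Ncam1 and Sdc3 were higher in neurons and Gas1 was higher in astrocytes. The sources used here do not show that the Gas1 protein binds GDNF. Ncam1, a neural adhesion molecule, had 3497 and 4034 in neurons and 434 and 435 in astrocytes (3.08 ± 0.12, adjusted p = 3.02e-07). Sdc3, a heparan sulfate proteoglycan, had 1023 and 907 in neurons and 155 and 122 in astrocytes (2.70 ± 0.16, adjusted p = 2.16e-06). Gas1, a membrane protein related to the GFRalpha co-receptors, had 327 and 272 in neurons and 2404 and 2566 in astrocytes (-3.01 ± 0.13, adjusted p = 5.61e-07). With the tested probe sets of each gene averaged these differences shrank to 1.91, 1.38 and -1.99.

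Of the 4 other genes of the sortilin family, Sorcs3 was higher in neurons and 2 were higher in astrocytes. Sorl1, the largest of these sorting receptors, had 425 and 368 in neurons and 2125 and 2204 in astrocytes (-2.42 ± 0.12, adjusted p = 1.11e-06). Sorcs1 had 46 and 51 in neurons and 195 and 184 in astrocytes (-1.73 ± 0.18, adjusted p = 6.02e-05). Sorcs3 had 103 and 117 in neurons and 12 and 11 in astrocytes, at least 6.87-fold higher in neurons (adjusted p = 3.23e-05).

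Protease genes listed for the cleavage of precursors were split, with 1 of 6 higher in neurons and 3 higher in astrocytes. The list does not tell proteases that cut neurotrophin precursors directly from those that do not. Pcsk5, a proprotein convertase, had 279 and 321 in neurons and 47 and 32 in astrocytes (2.60 ± 0.20, adjusted p = 1.16e-05). Its relative Pcsk6 had 34 and 38 in neurons and 281 and 265 in astrocytes (-2.56 ± 0.18, adjusted p = 5.51e-06). Plat, tissue plasminogen activator, had 268 and 272 in neurons and 1048 and 1017 in astrocytes (-1.89 ± 0.12, adjusted p = 3.96e-06). With its tested probe sets averaged, the difference of Plat was -1.01.

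Of 5 genes for the sorting and release of BDNF, 3 were higher in neurons and 1 in astrocytes. Syt4, a synaptotagmin of dense-core vesicles, had 2749 and 3715 in neurons and 9 and 3 in astrocytes, at least 200.1-fold higher in neurons (adjusted p = 1.35e-07). Cadps2, a priming factor of such vesicles, had 272 and 297 in neurons and 21 and 21 in astrocytes (3.15 ± 0.18, adjusted p = 2.17e-06). Hap1, a huntingtin partner in the transport of the precursor, had 184 and 154 in neurons and 58 and 44 in astrocytes (1.52 ± 0.20, adjusted p = 0.000274). Cpe, carboxypeptidase E, was bright in both, with 7787 and 7798 in neurons and 9747 and 11114 in astrocytes (-0.42 ± 0.10, adjusted p = 0.00732), and lost its call without either neuron array, with no filter (adjusted p = 0.0550) and with no mean-variance trend (adjusted p = 0.0644).

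Of 9 partners of p75NTR, 5 were higher in neurons and 3 in astrocytes. Lingo1, a co-receptor with p75NTR for myelin inhibitors, had 270 and 256 in neurons and 33 and 13 in astrocytes (3.02 ± 0.28, adjusted p = 2.79e-05). Bex3, a p75NTR-associated death executor, had 2449 and 2409 in neurons and 1798 and 1999 in astrocytes (0.36 ± 0.11, adjusted p = 0.0213). The kinase gene Irak1 had 166 and 101 in neurons and 699 and 670 in astrocytes (-2.29 ± 0.21, adjusted p = 2.89e-05). Nradd, a death domain gene related to Ngfr, had 5 and 21 in neurons and 80 and 110 in astrocytes, at least 4.27-fold higher in astrocytes (adjusted p = 0.000679). The call of Bex3 was lost with 1 array left out in 3 of 4 fits, without either neuron array or astrocytes replicate 1, and also with no filter (adjusted p = 0.0556) and no mean-variance trend (adjusted p = 0.0957). That of Nradd was lost without astrocytes replicate 2 (adjusted p = 0.0627).

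Of the intracellular adaptors, 4 of 15 were higher in neurons, 4 were higher in astrocytes and 7 did not pass. Sh2b2 had 56 and 63 in neurons and 3 and 2 in astrocytes, at least 3.72-fold higher in neurons (adjusted p = 9.39e-05). Gab1, a docking protein, had 345 and 379 in neurons and 1361 and 1354 in astrocytes (-1.87 ± 0.12, adjusted p = 3.83e-06). Shc1 had 4 and 22 in neurons and 82 and 95 in astrocytes, at least 4.02-fold higher in astrocytes (adjusted p = 0.000983), and missed the threshold when either astrocyte array was left out (adjusted p = 0.0611 and 0.0733). Kidins220, a substrate that binds Trk receptors, was the brightest of these, with 2134 and 2507 in neurons and 1938 and 2172 in astrocytes. It did not pass (0.17 ± 0.12, adjusted p = 0.264), though it did with its tested probe sets averaged (0.86, adjusted p = 0.000224).

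Of 12 kinases and factors of the cascades below the receptors, 5 were higher in neurons and 1 in astrocytes, with differences of at most 1.07 among those higher in neurons. Pik3r1, a regulatory subunit of PI3 kinase, had 1231 and 1091 in neurons and 478 and 626 in astrocytes (1.07 ± 0.15, adjusted p = 0.000429). Mapk7, which encodes ERK5, had 136 and 132 in neurons and 57 and 60 in astrocytes (1.05 ± 0.18, adjusted p = 0.00123). Rps6ka3, which encodes the kinase RSK2, had 378 and 437 in neurons and 229 and 196 in astrocytes (0.90 ± 0.15, adjusted p = 0.00116). With its tested probe sets averaged the difference did not pass (0.24, adjusted p = 0.211). Map2k1, which encodes MEK1, had 1265 and 896 in neurons and 1313 and 1479 in astrocytes and did not pass (adjusted p = 0.0810), except without neurons replicate 1 (-0.63, adjusted p = 0.0444).

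Of 10 inhibitors and modulators of these receptors, 3 were higher in neurons and 4 in astrocytes. Islr2, a membrane partner of Trk receptors and Ret, had 189 and 118 in neurons and 16 and 38 in astrocytes (2.10 ± 0.32, adjusted p = 0.000597) and lost its call without neurons replicate 1 (adjusted p = 0.0614). Dusp6, a phosphatase of ERK, had 443 and 392 in neurons and 1525 and 1483 in astrocytes (-1.82 ± 0.12, adjusted p = 4.77e-06). Spry1, an inhibitor of receptor kinases that include Ret, had 96 and 80 in neurons and 216 and 240 in astrocytes (-1.26 ± 0.17, adjusted p = 0.000328). Ndfip1, an adaptor of ubiquitin ligases, had 6356 and 5567 in neurons and 4505 and 4318 in astrocytes (0.43 ± 0.11, adjusted p = 0.00788), with its call lost without neurons replicate 1 or either astrocyte array and with no mean-variance trend (adjusted p = 0.0598).

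Of 7 tested genes known to respond to these receptors, Vgf was higher in neurons and 3 were higher in astrocytes. Vgf, a secreted neuropeptide precursor induced by BDNF, had 321 and 238 in neurons and 10 and 11 in astrocytes, at least 17.3-fold higher in neurons (adjusted p = 2.40e-06). Fos, an immediate early gene induced by many stimuli, had 76 and 59 in neurons and 797 and 943 in astrocytes (-3.47 ± 0.17, adjusted p = 9.15e-07). Etv5, a transcription factor that Ret and FGF receptors induce, had 406 and 316 in neurons and 1132 and 1019 in astrocytes (-1.55 ± 0.15, adjusted p = 4.09e-05).

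**Figure D4:**
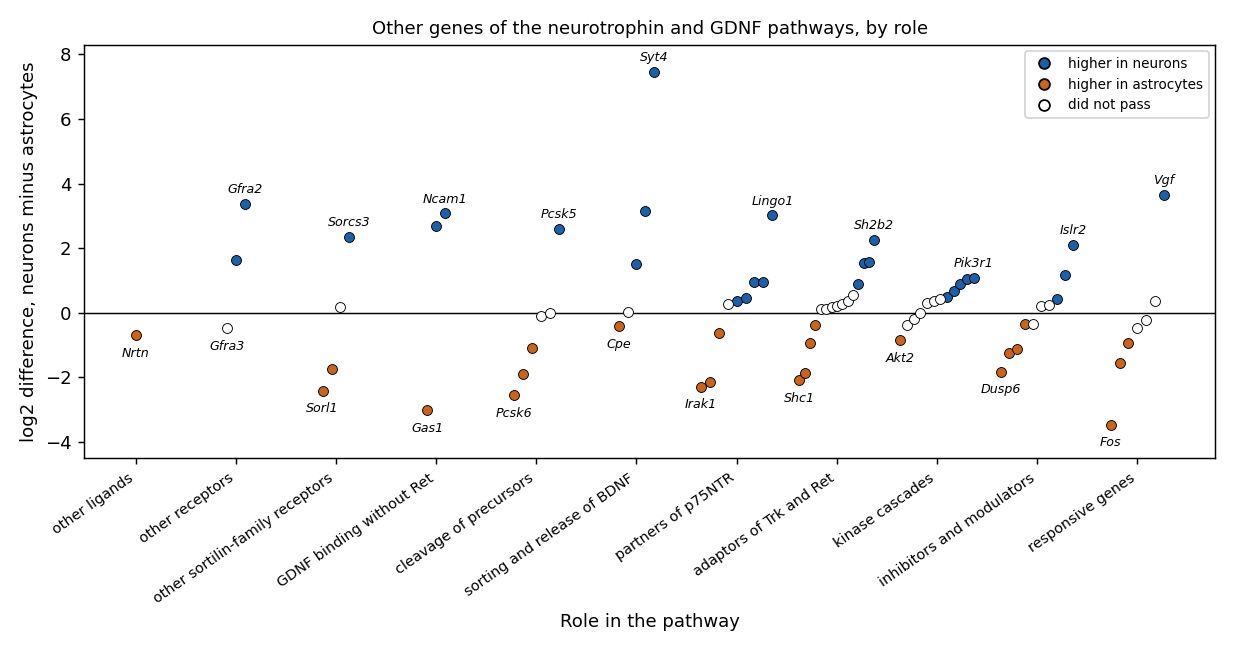
log2 difference (neurons minus astrocytes) of the 75 tested pathway genes, 1 point per gene, grouped by role. Blue points passed higher in neurons, orange points passed higher in astrocytes and white points did not pass, and the outermost gene of each role is named. Genes higher in either culture occur in nearly every role, and Syt4 has the largest difference at 7.46.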

How the data were processed

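The deposited probe set intensity values are linear and were computed by the authors with the MAS5 algorithm, as named in the submitters' processing notes; the sources used here do not state its version. Per the labels' protocols, labelled cRNA came from 50 ng of RNA through 2 rounds of cDNA synthesis. Each array's trimmed mean was 149.997 to 150.002. Control probe sets (64 of 45101) were left out.

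From these, log2(signal + 12.5) was computed; the offset is the median of the arrays' 25th percentiles. A probe set was tested where at least 2 of 4 arrays reached the array's median. Groups were compared by limma (version 3.58.1, R 4.3.3; mean-variance trend, two-sided, threshold 0.05); the fit was checked on simulated data. The median standard error was 0.197, and the number of arrays limits the precision. A gene was read by its brightest tested probe set with 1 symbol, updated through Entrez identifiers. All 9 members were named, and from each pathway role up to 3 of the largest passing differences and the brightest gene. Members and lists were chosen with earlier results of these data known. Alternatives were other offsets, filters, scaling, no trend, probe set averages, fewer probe sets, a replicate block, and each array left out. Nothing says whether replicates came from separate litters, so p-values measure only the spread between these arrays, which may be technical.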

Additional observations from a re-analysis of the deposited data

How the results depend on the processing

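The numbers of members passing by their brightest probe set were 1 in neurons and 2 in astrocytes under the other settings. With the tested probe sets of each gene averaged 2 were higher in neurons. Ntrk2 then turned round (0.63, adjusted p = 0.00199), and Sort1, which had not passed before, passed toward astrocytes (-0.41, adjusted p = 0.0348). With the filter at the 75th percentile 5 member probe sets were higher in neurons, 3 were higher in astrocytes, and 3 differences between probe sets of a member passed, as fewer probe sets were tested; over all probe sets 4769 were then higher in neurons, and 762 differences between probe sets of 1 gene passed. That last count was 2971 with 4 times the offset and 1064 with an offset of 1; the cause was not tested. With 4 times the offset the difference of Ntrk3 1447723_at from the brightest Ntrk3 probe set turned to -0.10 (adjusted p = 0.677).

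With 1 array left out, which assumes that a lone array varies like the others, 4440 to 5272 probe sets and 2493 to 2992 genes were higher in astrocytes, 14 to 20 pathway genes were higher in astrocytes, and 892 to 1125 differences between probe sets of 1 gene passed, 5 to 7 of them of members. The differences of Sort1 1423362_at lay between -0.13 and 0.22 and those of Bdnf 1422169_a_at between -0.0931 and 0.0736, and neither passed in any of these fits. In the fit with the replicate block 27 pathway genes were higher in neurons and 22 in astrocytes, and 8 and 6 member probe sets; it changed no call of a member or of a named pathway gene. The labels do not say that replicate numbers pair cultures, and deviations of same-numbered arrays correlated at -0.0901 across probe sets. Probe sets near background limit what can be read for Gdnf, Ret and Ngfr.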
